A study of Homo sapiens with 30 samples.

Results

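The genes described here are 10 genes of cytosolic and mitochondrial protein folding and its control, chosen by symbol from the 21112 genes quantified in the study: HSP90AA1, HSP90AB1, HSPA8, HSPA1A, HSPA1B, HSPA4, HSPA9, HSPH1, DNAJB1 and the transcription factor HSF1. Their RNA was measured in 30 RNA-seq libraries from 4 diffuse large B-cell lymphoma (DLBCL) cell lines treated with AZD8186, an inhibitor of the β and δ isoforms of PI3K. AZD8186 at 0.5 µM was compared with DMSO in OCI-Ly10 and TMD8, both of the activated B-cell-like (ABC) subtype, and in HT and K422, both of the germinal center B-cell-like (GCB) subtype. Cells were taken after 6 h, 12 h, 18 h and 24 h, except that TMD8 had no 12 h libraries, and each combination of cell line, treatment and time point had 1 library. There were thus 7 AZD8186 and 7 DMSO libraries of ABC lines, and 8 AZD8186 and 8 DMSO libraries of GCB lines. The labels name no engineered allele. By the study's methods its cell lines were modified with a murine ecotropic receptor and a bacterial tetracycline repressor for retroviral transduction. Whether the sequenced cells carried these is not stated. All 4 lines were chosen by the study for their sensitivity to AZD8186, and each is a single cell line. The series text calls the controls untreated where the sample labels say DMSO, and no source says that libraries of 1 line came from separate cultures, so a p-value reflects how much these libraries vary and no more than that.

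HSP90 and HSP70 proteins bind unfolded or unstable client proteins and release them in cycles driven by ATP. J-domain proteins such as DNAJB1 deliver clients to HSP70 and speed its ATP hydrolysis, HSP110 proteins such as HSPH1 exchange its nucleotide, and HSP90 takes over many kinases and receptors for their last folding steps. HSF1 is held inactive in part by these chaperones and, once released under stress, binds heat shock elements in the promoters of chaperone genes. Lymphoma cells are known to depend on HSP90 clients, kinases of B-cell receptor signaling among them.

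The libraries held 15820230 to 23579029 expected counts (median 18591638). The median share of counts in ribosomal protein genes was 23.9% in ABC lines under AZD8186 and 19.1% in DMSO, and 16.9% under AZD8186 and 14.6% in DMSO in GCB lines. The 10 genes together took 0.517% to 0.867% of counts in ABC lines under AZD8186, against 0.837% to 1.091% in DMSO, and 0.703% to 1.192% in GCB lines under AZD8186, against 1.045% to 1.647% in DMSO. B-cell markers were present in all lines (CD79A at 560.9 TPM or more). MME, BCL6, MYBL1, SERPINA9 and S1PR2 marked HT and K422, whereas LMO2, another germinal center marker, was at 0 in HT and at 0.66 TPM or less in K422 but reached 5.16 to 35.4 TPM in TMD8, against its label. IRF4, BATF, CD44, CCND2 and TNFRSF13B marked OCI-Ly10 and TMD8 and stayed at 0.21 TPM or less in the GCB lines. FOXP1, the remaining ABC marker of the list, did not separate the subtypes, with 17.8 to 33.1 TPM in K422 and 10.7 to 14.7 TPM in HT, against 15.3 to 20.4 TPM in TMD8 and 27.1 to 35.8 TPM in OCI-Ly10. CD3D and CD3G, known from T cells, reached 61.6 to 87.3 and 82.1 to 116 TPM in K422, where CD3E was at most 1.65 TPM and CD2 was at 0. The markers of myeloid cells and stroma stayed at 1.19 TPM or less.

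The sequences that HSF1 is known to bind are shown first, as background to these genes. A heat shock element is a run of inverted GAA units. The search covered 300 bases around each annotated start (250 before, 50 after; RefSeq, build GRCh38.p14) on both strands, for 2 units (GAANNTTC or TTCNNGAA) and for 3 units (GAANNTTCNNGAA or TTCNNGAANNTTC, each of which holds overlapping 2-unit matches). Of 35116 such promoters, 172 (0.49%) held a 3-unit element and 4737 (13.5%) a 2-unit element. Of the 14 starts of 9 chaperone genes in the table, 3 held 3 units, at HSP90AA1, HSP90AB1 and HSPA8, and 8 starts of 7 genes held 2 units. No match was found at HSPA4 and HSPH1 in this window, and HSF1 itself had no entry. The stretches below run 5′ to 3′ with the elements in capitals. Those of HSP90AB1, HSPA1A, HSPA1B and DNAJB1 lie outside annotated exons, and those of HSP90AA1 and HSPA8 overlap an annotated exon in GENCODE 29 and are cut to the element and its flanks.
HSP90AA1: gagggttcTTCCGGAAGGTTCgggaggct
HSP90AB1: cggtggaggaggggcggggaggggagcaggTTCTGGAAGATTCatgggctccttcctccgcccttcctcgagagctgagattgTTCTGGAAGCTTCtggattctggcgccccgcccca
HSPA8, distal: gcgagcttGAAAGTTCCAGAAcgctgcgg
HSPA8, proximal: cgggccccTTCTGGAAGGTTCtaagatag
HSPA1A: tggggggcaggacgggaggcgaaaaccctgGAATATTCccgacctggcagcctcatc
HSPA1B: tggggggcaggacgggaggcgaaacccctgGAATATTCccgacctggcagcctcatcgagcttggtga
DNAJB1: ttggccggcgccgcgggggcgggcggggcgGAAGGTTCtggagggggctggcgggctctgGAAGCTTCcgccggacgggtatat

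The HSP90AA1 stretch is at chr14:102087112-102087140, minus strand, before the inner of its 2 annotated starts, and the outer start had no element. That of HSP90AB1 is at chr6:44247748-44247865, plus strand, before the last of 3 starts, and holds 3 units at each of 2 places. HSPA8 has them at chr11:123062346-123062374, minus strand, and at chr11:123062171-123062199, minus strand. The HSPA1A stretch at chr6:31815407-31815463, plus strand, and the HSPA1B stretch at chr6:31827603-31827670, plus strand, share the same 2-unit match and nearly all flanking bases. DNAJB1 has a pair of 2-unit matches at chr19:14518421-14518504, minus strand. A match is a stretch of letters, and HSF1 binding was not measured in these libraries.

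AZD8186 treatment lowered the transcripts of most of these chaperones in both subtypes, most of all HSPA1B and HSPA8 in ABC lines (0.599 and 0.606 times the DMSO level) and HSPA1B and HSP90AA1 in GCB lines (0.564 and 0.648 times). In ABC lines 8 of the 9 genes that passed the count filter fell and 0 rose (HSPA1A was too low to be tested). Over all 11419 genes tested, 13.8% fell and 15.3% rose. In GCB lines 8 of 10 fell and 0 rose, and 23.5% of 10965 genes fell and 25.9% rose. None of these 10 genes was higher at an unadjusted p under 0.05 in either subtype, and DESeq2 and limma-voom also called 0 of them higher. HSF1 was not called in either subtype. In bulk libraries such as these, less RNA per cell and fewer cells of a kind cannot be told apart. The median log2 fold change of the tested members was -0.49 in ABC lines, beside 0.01 over all genes, and -0.53 in GCB lines, beside 0.02 over all genes. The calls come from edgeR's quasi-likelihood test with terms for line and time point and Benjamini-Hochberg adjustment over all genes tested, at an adjusted p under 0.05. The study's own lists of changed genes were chosen on these libraries and include HSPA1B, HSP90AA1 and HSPA5, so the direction of those genes is not independent of them. On the TPM scale, limma on log2(TPM + 1) called 9 members lower in each subtype, HSF1 being the added gene. There 4279 genes fell and 620 rose in ABC lines with a median of -0.15 over all genes, and 3077 fell and 2086 rose in GCB lines with a median of -0.03. TPM is a share of all transcripts, and the part of the higher ribosomal protein share under AZD8186 in these lower values was not tested.

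**Figure D1:**
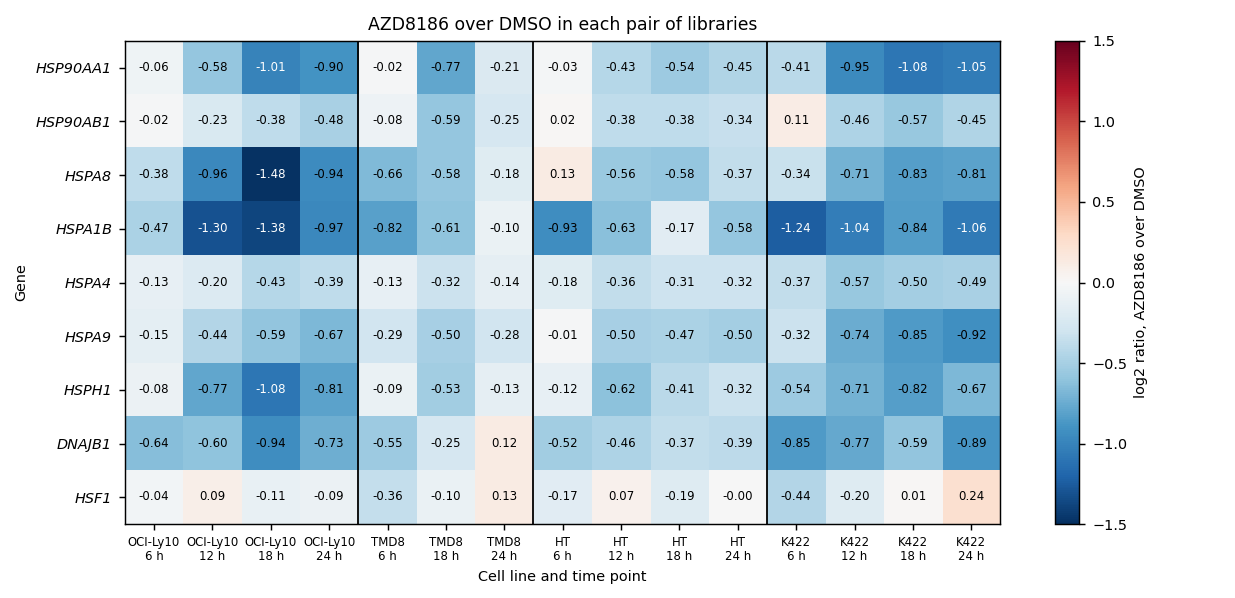
The log2 ratio of AZD8186 over DMSO in each of the 15 pairs of libraries (columns, by cell line and time point) for 9 genes (rows), from TMM-scaled log2 CPM with a prior count of 2; blue is lower under AZD8186. HSP90AA1, HSPA1B, HSPA4, HSPA9 and HSPH1 were below 0 in all 15 pairs, and HSF1 in 10 of 15.

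HSP90AA1 encodes the inducible HSP90α. In OCI-Ly10 it stood at 567, 459.9, 349 and 330.4 TPM under AZD8186, in the order 6, 12, 18 and 24 h used throughout, against 577, 788, 826 and 756 TPM in DMSO. All AZD8186 libraries lay below all DMSO libraries, by a narrow margin at 6 h. In TMD8 it was at 598, 424 and 594 TPM after 6, 18 and 24 h of AZD8186, against 645, 884 and 856 TPM in DMSO, again without overlap. In HT the AZD8186 libraries had 1097, 1497, 1128 and 807 TPM, against 1162, 2097, 1602 and 1157 TPM in DMSO, and the groups overlapped. K422 had 1243, 1307, 1078 and 847 TPM under AZD8186, against 1629.9, 2613, 2471 and 2071 TPM in DMSO, and its groups did not overlap. The fitted log2 fold change was -0.50 ± 0.11 (adjusted p = 0.00552) in ABC lines and -0.63 ± 0.10 (adjusted p = 0.000204) in GCB lines (± SE; edgeR). HSP90AA1 was lower in 7 of 7 ABC pairs (exact sign-permutation p = 0.0156, two-sided, the smallest that 7 pairs allow) and in 8 of 8 GCB pairs (exact p = 0.00781, the smallest for 8 pairs). Overlap between treatments, here and for the genes below, is a description in TPM, where the median of all genes in ABC lines shifted down. The share of all genes without overlap was not counted.

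HSP90AB1 encodes the constitutive HSP90β and had smaller fold changes. OCI-Ly10 had 1299, 1043, 1031 and 980.1 TPM under AZD8186, against 1284, 1399, 1578 and 1677 TPM in DMSO. K422 had 1265, 890.3, 926 and 855 TPM under AZD8186, against 1162, 1265, 1489.9 and 1375 TPM in DMSO. In both lines the 6 h library under AZD8186 was the highest of its series and slightly exceeded its DMSO partner in TPM. TMD8 ranged 1056 to 1384 TPM under AZD8186 and 1541 to 2047 TPM in DMSO, and HT 1176 to 1513 TPM under AZD8186 and 1386 to 2039 TPM in DMSO. Only TMD8 had no overlap between treatments. The log2 fold change was -0.28 ± 0.07 (adjusted p = 0.0113) in ABC lines and -0.31 ± 0.08 (adjusted p = 0.00539) in GCB lines (edgeR). The ABC call was lost without the OCI-Ly10 pair at 18 h (adjusted p = 0.0545) and when the 18 h pair of TMD8 was left out (adjusted p = 0.059). Both HSP90 genes, and HSPA8, have processed pseudogenes in the human genome that can share reads with them, and how the deposited counts split such reads was not tested.

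HSPA8 encodes HSC70, the constitutive HSP70 of the cytosol. In OCI-Ly10 it was at 825, 624, 383 and 537 TPM at the 4 time points under AZD8186, against 1049.6, 1394, 1256 and 1266 TPM in DMSO. Every AZD8186 library of OCI-Ly10 lay below every DMSO library, and the log2 ratio at 18 h, -1.48, was the lowest of any member other than HSPA1A in any pair. TMD8 had 629, 590.4 and 943 TPM after 6, 18 and 24 h of AZD8186, against 1056, 1072 and 1333 TPM in DMSO, also without overlap. HT had 942, 1324, 831 and 977 TPM under AZD8186, against 897, 2029.7, 1211 and 1329.8 TPM in DMSO, where the groups overlapped and the 6 h pair ran the other way (log2 ratio 0.13). K422 had 1246, 1386, 949 and 948 TPM under AZD8186, against 1558, 2347, 1825 and 1953 TPM in DMSO, without overlap. The fall was -0.72 ± 0.13 (adjusted p = 0.0011) on the log2 scale in ABC lines and -0.52 ± 0.09 (adjusted p = 0.000273) in GCB lines (edgeR).

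HSPA1A and HSPA1B encode the stress-inducible HSP70 and differ in almost none of their protein. In the files 1 of the pair, HSPA1B, carried the signal in 3 lines. HSPA1A was at 32.6 to 67 TPM under AZD8186 and 34.5 to 123 TPM in DMSO in HT, but at 0.19 to 0.97 TPM under AZD8186 and 0.29 to 1.04 TPM in DMSO in K422, and at 0.5 TPM or less in OCI-Ly10 and TMD8. HSPA1B was at 63.8, 59.4, 48.4 and 68.9 TPM at the 4 time points under AZD8186 in K422, against 149, 126, 93.7 and 169 TPM in DMSO. In HT it was at 68.7, 40.3, 38.8 and 57.6 TPM under AZD8186, against 136, 64.6, 42.7 and 90.7 TPM in DMSO. TMD8 had 50.5, 28.4 and 127 TPM of HSPA1B after 6, 18 and 24 h of AZD8186, against 94.9, 52.7 and 169 TPM in DMSO. OCI-Ly10 had only 7.39, 4.37, 2.54 and 6.21 TPM under AZD8186, against 10, 12.4, 7.86 and 15 TPM in DMSO. K422 and OCI-Ly10 had no overlap between treatments, while TMD8 and HT did.

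HSPA1B was the member with the largest fall in both subtypes, -0.74 ± 0.15 (adjusted p = 0.00272) in ABC lines and -0.83 ± 0.12 (adjusted p = 6.15e-05) in GCB lines on the log2 scale (edgeR), with HSPA8 within its standard error in ABC lines, and was lower in all 15 pairs. HSPA1A in GCB lines had -0.27 ± 0.15 (adjusted p = 0.135), not called by edgeR, and was called by limma-voom (adjusted p = 0.0385). The transcripts of the pair, 2483 and 2521 bases in GENCODE 29, share 72.6% of 50-base stretches of HSPA1A and 67.1% of 150-base stretches, so reads from the shared part had to be split by RSEM. With the expected counts of both summed, the log2 fold change was -0.73 ± 0.15 in ABC lines (adjusted p = 0.00288) and -0.77 ± 0.12 in GCB lines (adjusted p = 8.68e-05, edgeR). HSPA1A made up 45.6% to 61.8% of the summed TPM in HT under AZD8186 and 36.1% to 65.6% in DMSO, against at most 1.61% in K422. The genes lie in tandem on chromosome 6 (HSPA1A at chr6:31815464-31817946, HSPA1B at chr6:31827735-31830255, both on the plus strand, GRCh38).

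**Figure D2:**
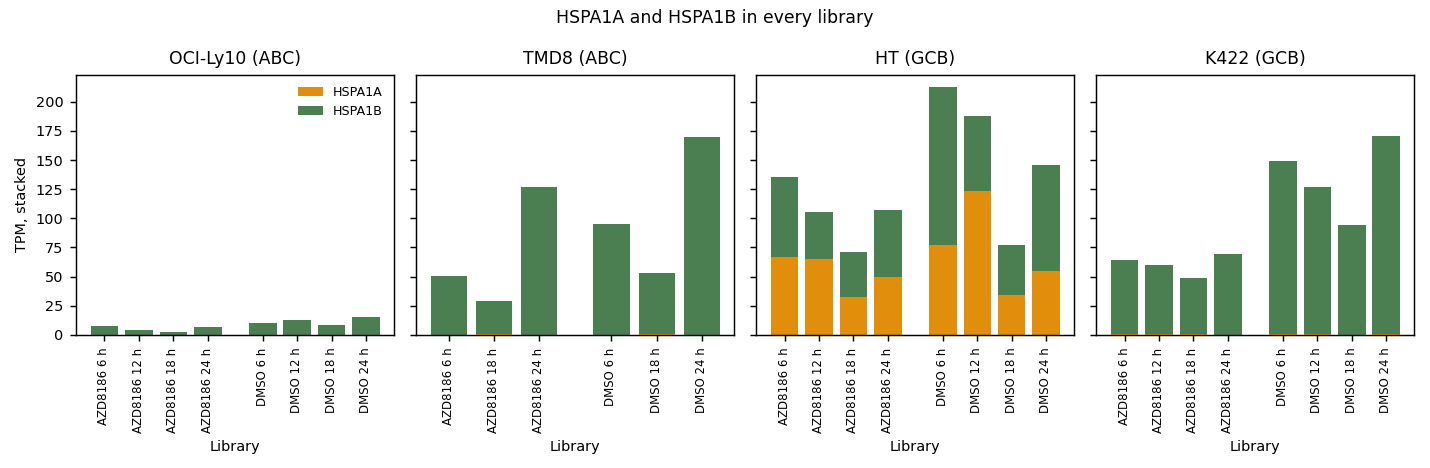
TPM of HSPA1A (orange) and HSPA1B (green), stacked, in every library of the 4 cell lines, AZD8186 libraries left of DMSO libraries. HT alone shows a tall HSPA1A part (32.6 to 123 TPM), and OCI-Ly10 stays at 15.1 TPM or less in sum.

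HSPA4, an HSP110 family member that exchanges nucleotide on HSP70, changed by a small and even amount. It ranged 78.1 to 96.8 TPM under AZD8186 and 103 to 126 TPM in DMSO in OCI-Ly10, and 81.6 to 112 TPM under AZD8186 and 119.6 to 154 TPM in DMSO in TMD8. In HT the ranges were 113 to 136 TPM under AZD8186 and 136 to 169 TPM in DMSO, and in K422 93.5 to 101 TPM under AZD8186 and 129 to 154 TPM in DMSO. HSPA4 had no overlap between treatments in any of the 4 lines, but the margin in HT was very narrow. There the highest AZD8186 value was 136.25 TPM and the lowest DMSO value 136.38 TPM. The log2 fold change was -0.24 ± 0.06 (adjusted p = 0.00728) in ABC lines and -0.39 ± 0.06 (adjusted p = 5.59e-05) in GCB lines, and every pair lay between -0.57 and -0.13. HSPA9 encodes mortalin, the HSP70 of the mitochondrial matrix. Its levels were 90 to 133 TPM under AZD8186 and 144 to 176 TPM in DMSO in OCI-Ly10, and 159, 116, 118 and 100.1 TPM at 6, 12, 18 and 24 h under AZD8186 in K422, against 197, 201, 231 and 222 TPM in DMSO. TMD8 had 123 to 168 TPM under AZD8186 and 186 to 255 TPM in DMSO, and HT 145 to 181 TPM under AZD8186 and 189.6 to 220.5 TPM in DMSO. The treatments did not overlap in any line for HSPA9 either, but the share of all genes without such overlap was not counted. HSPA9 fell by 0.41 on the log2 scale in ABC lines (adjusted p = 0.00111) and by 0.55 in GCB lines (adjusted p = 7.64e-05, edgeR).

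HSPH1 encodes HSP105, the stress-inducible HSP110. OCI-Ly10 had 82.4, 61.4, 34.1 and 47.7 TPM at the 4 time points under AZD8186, against 85, 121, 85 and 103 TPM in DMSO. K422 had 87.4, 93, 57 and 74 TPM under AZD8186, against 126, 158, 109 and 139 TPM in DMSO. All AZD8186 libraries of these 2 lines lay below all their DMSO libraries. HT had 133, 118, 69.4 and 97.6 TPM under AZD8186, against 151, 189, 89.9 and 129 TPM in DMSO, and TMD8 106, 52.2 and 104 TPM at 6, 18 and 24 h under AZD8186, against 120.2, 91.7 and 141 TPM in DMSO, with overlap in both. The log2 fold change was -0.49 ± 0.11 (adjusted p = 0.00543) in ABC lines and -0.54 ± 0.08 (adjusted p = 6.42e-05) in GCB lines (edgeR). DNAJB1 encodes HSP40, a J-domain partner of HSP70 that is itself stress-inducible and takes part in shutting HSF1 down. It stood at 29.5, 29.2, 21.6 and 26.8 TPM under AZD8186 in OCI-Ly10, against 44.9, 50.8, 48.6 and 54.7 TPM in DMSO. In K422 it stood at 86.4, 76.4, 59 and 73.2 TPM under AZD8186, against 154, 134, 96.1 and 159.7 TPM in DMSO. Neither line had overlap between treatments. HT had 163, 121, 98.2 and 133 TPM under AZD8186, against 243, 174, 124 and 183 TPM in DMSO, and TMD8 65.8, 51.3 and 99.5 TPM against 102, 74.3 and 114 TPM in DMSO. DNAJB1 changed by -0.50 ± 0.10 (adjusted p = 0.00308) on the log2 scale in ABC lines and by -0.61 ± 0.07 (adjusted p = 7.81e-06) in GCB lines (edgeR), where it had the smallest p of the 10 genes. HSPH1 was lower in 15 of 15 pairs and DNAJB1 in 14 of 15, with TMD8 at 24 h the exception (log2 ratio 0.12).

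HSF1, the factor that induces these chaperones under stress, was not called. OCI-Ly10 had 88.6, 89.5, 75.3 and 75.2 TPM at the 4 time points under AZD8186, against 88.5, 96, 95.8 and 98 TPM in DMSO. TMD8 had 53, 58.5 and 76 TPM after 6, 18 and 24 h of AZD8186, against 72, 76.1 and 86.5 TPM in DMSO. HT had 102, 118, 118 and 117 TPM under AZD8186, against 119.5, 116, 131 and 123 TPM in DMSO. K422 had 98.7, 111, 112 and 111 TPM under AZD8186, against 133, 131, 120.1 and 111 TPM in DMSO. The treatments overlapped in all 4 lines. The log2 fold change was -0.06 ± 0.06 (adjusted p = 0.509) in ABC lines and -0.10 ± 0.06 (adjusted p = 0.195) in GCB lines (edgeR). HSF1 RNA was lower in 5 of 7 ABC pairs (exact sign-permutation p = 0.328) and in 5 of 8 GCB pairs (exact p = 0.305). On the log2(TPM + 1) scale, where the median of all genes shifts down, HSF1 had -0.26 in ABC lines (adjusted p = 0.0172) and -0.15 in GCB lines (adjusted p = 0.0228, limma). HSF1 is regulated largely at the protein level, by release from chaperones and by phosphorylation, which RNA-seq does not measure.

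**Figure D3:**
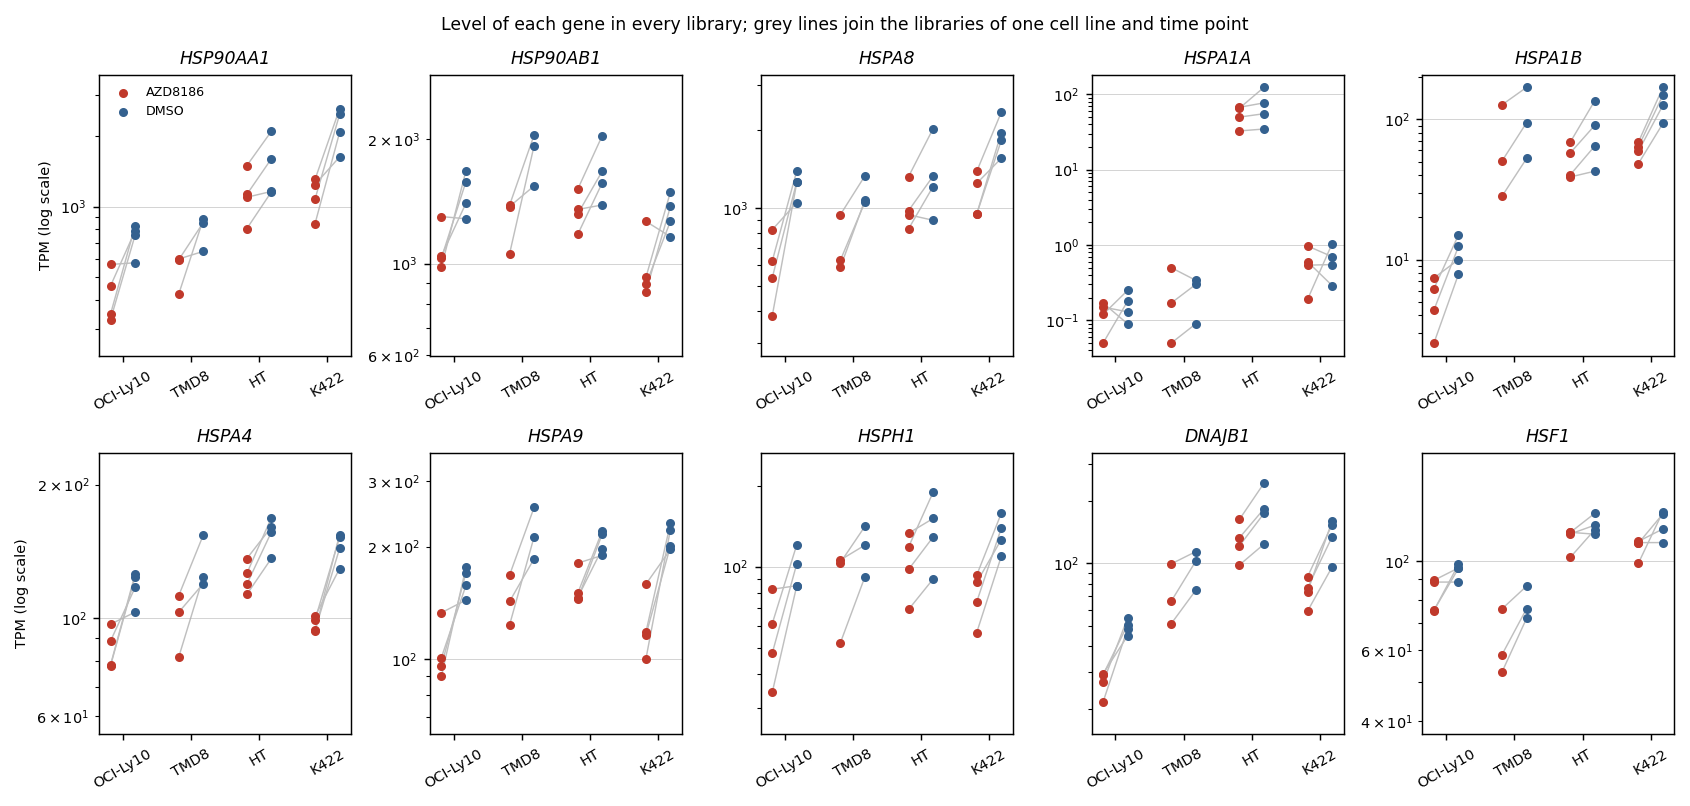
TPM of each gene (log axis, 1 panel a gene) in every library of the 4 cell lines, with AZD8186 (red) left of DMSO (blue) and a grey line joining the 2 libraries of a time point; HSPA1A values under 0.05 TPM are drawn at 0.05. In OCI-Ly10 and K422 the red and blue points of HSPA8, HSPA1B, HSPA9, HSPH1 and DNAJB1 do not overlap, and those of HSF1 in K422 do. The share of all genes without overlap was not counted.

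Fitted line by line, with time point as the pair, 7 of 9 members fell in OCI-Ly10, where 14.6% of all genes fell, and HSP90AB1 (-0.27 ± 0.11, adjusted p = 0.0944) and HSF1 were not called. In HT 9 of 10 fell, against 18.9% of all genes, all but HSF1 (-0.09 ± 0.05, adjusted p = 0.202). In K422 7 of 10 fell, against 24% of all genes. HSP90AB1 had -0.36 ± 0.13 (adjusted p = 0.055) there, and HSPA1A, near 0, and HSF1 were not called. In TMD8, with 3 pairs, 0 of 10 were called, as 1.23% of all genes fell. At an unadjusted p under 0.05, 3 members of TMD8 were lower, HSPA8 (-0.47, adjusted p = 0.0963), HSPA1B (-0.51, adjusted p = 0.102) and HSPA9 (-0.36, adjusted p = 0.105). Over all genes, 2552 of 11214 passed that threshold in TMD8, in either direction. All 10 log2 fold changes of TMD8 were below 0 (edgeR in each case), though HSPA1A, at 0.5 TPM or less there, had -0.07 ± 0.63. The members' median was -0.63 in OCI-Ly10, -0.28 in TMD8, -0.37 in HT and -0.70 in K422.

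**Figure D4:**
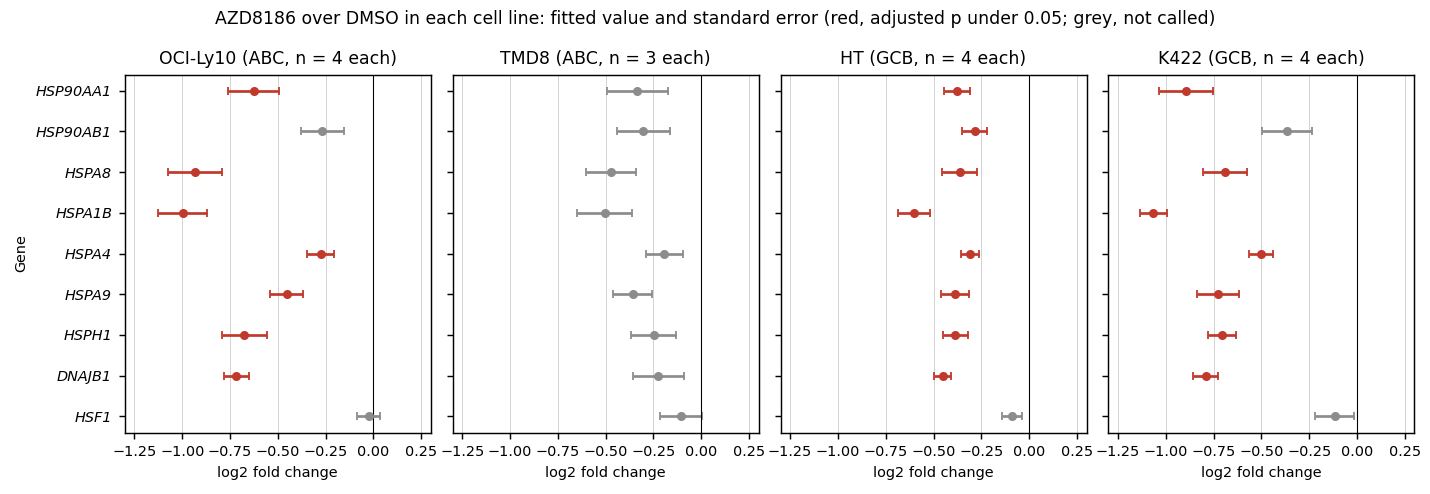
Log2 fold change of AZD8186 over DMSO with its standard error for 9 genes in each cell line (4 libraries per treatment, 3 in TMD8), red where the adjusted p was under 0.05. HSPA1B lies farthest left in all 4 lines, at 0.501 times the DMSO level in OCI-Ly10, and at log2 values of -0.51 in TMD8, -0.60 in HT and -1.06 in K422, and HSF1 nearest 0.

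The size of the fall did not differ detectably between subtypes. For the response in GCB minus ABC lines 0 of 10 members were called, and 0 with DESeq2's size factors (edgeR), while 13.4% of all genes were called. An unadjusted p under 0.05 was found for 0 members and for 3231 of 11286 genes. HSPA1A is among the 10 with -0.12 ± 0.56, but it was too low to be tested in ABC lines alone, so its result tells little. The differences on the log2 scale lay between -0.14 ± 0.07 for HSPA4 and 0.23 ± 0.17 for HSPA8 (SE). Within the GCB subtype K422 fell further than HT in HSPA1B (-0.46 ± 0.14, adjusted p = 0.0381) and DNAJB1 (-0.34 ± 0.08, adjusted p = 0.0144), 2 of 10 members, when 9.33% of genes had a lower response in K422. The summed HSPA1A and HSPA1B gave -0.56 ± 0.13 (adjusted p = 0.0118, edgeR). HSP90AA1 (-0.51 ± 0.17, adjusted p = 0.0595) and HSPH1 (-0.32 ± 0.11, adjusted p = 0.065) did not pass. This count rests on single pairs. Without the HT pair at 18 h it was 0, with adjusted p = 0.0938 for HSPA1B and 0.0573 for DNAJB1, and without the K422 pair at 6 h it was 7. HSPA1B was also not called without HT at 12 h, HT at 24 h, K422 at 12 h or K422 at 24 h (adjusted p = 0.0663 to 0.0935), which left 1 or 2 members called. For TMD8 minus OCI-Ly10 0 of 9 were called, as were 0.429% of all genes, and 2 members had an unadjusted p under 0.05, HSPA1B (0.49 ± 0.21, adjusted p = 0.423) and DNAJB1 (0.49 ± 0.14, adjusted p = 0.183), both with an estimate less reduced in TMD8. So did 1226 of 11419 genes, in either direction. Without the TMD8 pair at 6 h DNAJB1 was called (0.66, adjusted p = 0.00741). That AZD8186 library had the highest share of ribosomal RNA of all, 4.354%, whose part in this difference was not tested.

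The 6 h pairs stood apart from the later ones for some members. HSP90AA1 had log2 ratios of -0.06, -0.58, -1.01 and -0.90 at 6, 12, 18 and 24 h in OCI-Ly10, -0.03, -0.43, -0.54 and -0.45 in HT and -0.41, -0.95, -1.08 and -1.05 in K422, and of -0.02, -0.77 and -0.21 at 6, 18 and 24 h in TMD8. In all 4 lines the 6 h value was the nearest to 0. HSPA1B ran at -1.24, -1.04, -0.84 and -1.06 in K422 and -0.93, -0.63, -0.17 and -0.58 in HT, with the 6 h pair the lowest of each line. OCI-Ly10 ran the other way, with HSPA1B at -0.48 at 6 h, the nearest to 0, and at -1.38 to -0.97 at the later time points, and TMD8 had -0.82, -0.61 and -0.10 at 6, 18 and 24 h. DNAJB1 had -0.52, -0.46, -0.37 and -0.39 in HT and -0.85, -0.77, -0.59 and -0.89 in K422, with no step after 6 h. Tested as 18 to 24 h minus 6 to 12 h, 0% of genes were called in ABC lines and 0% in GCB lines (edgeR), so 0 of 9 and 0 of 10 members. At an unadjusted p under 0.05 stood 1356 genes in ABC lines and 759 in GCB lines. Among them were 2 members in ABC lines, HSP90AA1 (-0.51 ± 0.19, adjusted p = 0.298) and HSP90AB1 (-0.32 ± 0.11, adjusted p = 0.254), and 0 in GCB lines. Without both 6 h pairs 8 members were lower in each subtype.

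Some members also varied with time point in both treatments. HSPH1 was at its lowest at 18 h in all 8 series of 1 line and 1 treatment, and so was HSPA1B. DNAJB1 was lowest at 18 h in 7 of 8, all but OCI-Ly10 in DMSO, where 6 h was lower. Of 9567 genes with a mean of 5 CPM or more, 0.0732% were lowest at 18 h in all 8 series and 0.345% in 7 or more. The 18 h time point was picked out after its values were seen, and this is a description with no test. HSPH1 at 18 h was 0.498 to 0.827 times the mean of the other time points of its series, HSPA1B 0.32 to 0.756 times and DNAJB1 0.619 to 0.97 times. HSPA1A in HT, the only line with a clear level, was at 32.6 TPM under AZD8186 and 34.5 TPM in DMSO at 18 h. HSP90AB1 (0.765 to 1.18 times) and HSF1 (0.893 to 1.1 times) showed no such dip. Any difference between time points, with cell line as a term and added to the analysis after the data were seen, was called for 4 of 10 members in the AZD8186 libraries (HSPH1, adjusted p = 0.00392, and HSP90AA1, DNAJB1 and HSPA1B at 0.0354 to 0.0457), where 2.45% of genes were called. In the DMSO libraries it was called for 6 of 10 (HSPH1, adjusted p = 0.00171, and HSPA1B, HSP90AA1, HSPA1A, DNAJB1 and HSPA8 at 0.00919 to 0.0335), where 1.36% of genes were. HSPA1A adds little to this count, as it had a clear level in HT alone, with 1 library per time point, and shares reads with HSPA1B. A straight slope over time in DMSO was called for 0 of 10 members and for 7.22% of genes (edgeR). At an unadjusted p under 0.05 this slope had 4 members and 2931 of 12596 genes. The 18 h libraries held 16293937 to 22190876 counts with 1.46% to 2.92% ribosomal RNA, within the ranges of the other time points. Which libraries were harvested or prepared together is not given in the sources used here.

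**Figure D5:**
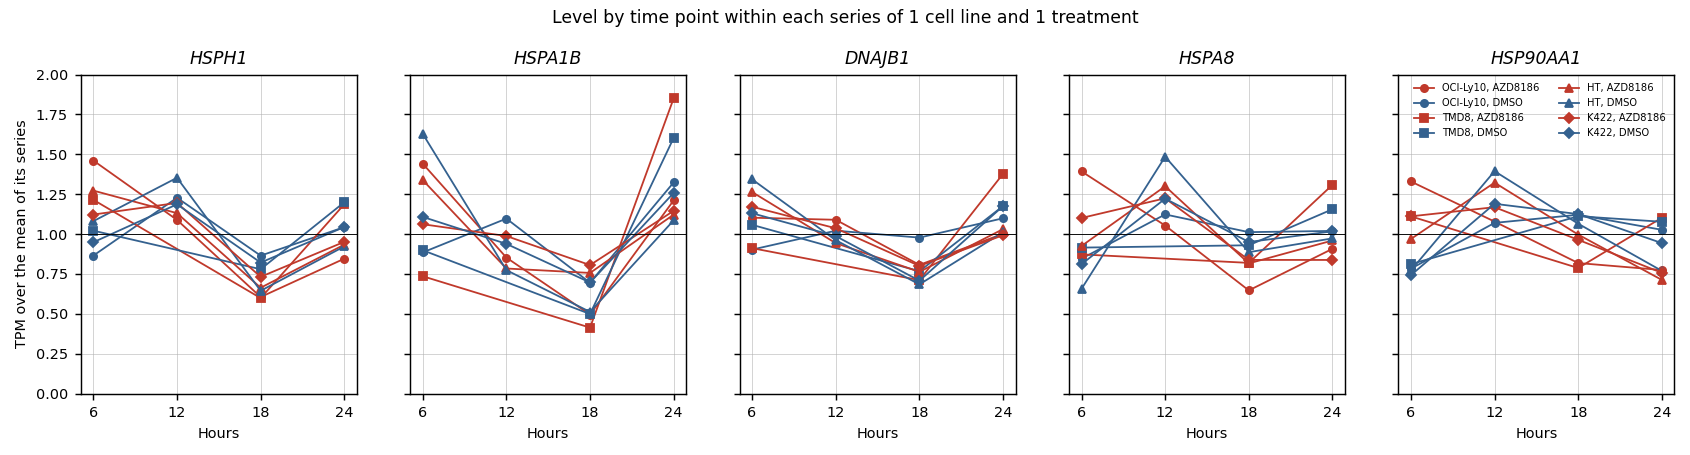
TPM of HSPH1, HSPA1B, DNAJB1, HSPA8 and HSP90AA1 over the mean of their series (1 cell line, 1 treatment) by hours of treatment, red for AZD8186 and blue for DMSO, 1 marker a line. All 8 series of HSPH1 and HSPA1B are lowest at 18 h, while HSP90AA1 is lowest at 24 h or 6 h in 7 of 8.

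In DMSO the 10 genes spanned a wide range of levels, and the lines differed in each of them. Any difference between lines was called for 10 of 10, but also for 97.3% of the 12596 genes tested, and the 4 libraries of a line are time points of 1 line. HSP90AB1, HSPA8 and HSP90AA1 were the highest by TPM, a per-length scale. HSP90AB1 ranged 1162 to 2047 TPM over the DMSO libraries, HSPA8 897 to 2347 TPM and HSP90AA1 577 to 2613 TPM. HSF1 ranged 72 to 133 TPM.

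In DMSO, 68% to 80.9% of all genes were called between any 2 of the 4 lines, so a called difference between lines is common. HSP90AA1 was higher in both GCB lines than in both ABC lines. Its DMSO level was 1629.9 to 2613 TPM in K422, 1157 to 2097 TPM in HT, 645 to 884 TPM in TMD8 and 577 to 826 TPM in OCI-Ly10, and each step in that order passed the test (K422 minus HT 0.43 ± 0.09, adjusted p = 0.000253; HT minus TMD8 0.49 ± 0.10, adjusted p = 0.000169; TMD8 minus OCI-Ly10 0.23 ± 0.09, adjusted p = 0.0409, edgeR). HSP90AB1 ran otherwise, highest in TMD8, then OCI-Ly10 and HT, between which no difference was called (HT minus OCI-Ly10 -0.12 ± 0.08, adjusted p = 0.18), and lowest in K422 (K422 minus HT -0.46 ± 0.08, adjusted p = 4.86e-05). The TPM ratio of HSP90AA1 to HSP90AB1 was thus 0.983 to 1.47 under AZD8186 and 1.4 to 2.07 in DMSO in K422, against 0.686 to 0.989 and 0.738 to 1.03 in HT, 0.402 to 0.435 and 0.418 to 0.458 in TMD8, and 0.337 to 0.441 and 0.449 to 0.563 in OCI-Ly10.

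The HSPA1 pair and DNAJB1 also differed widely between lines in DMSO. HSPA1A and HSPA1B summed were 94 to 170.3 TPM in K422, 77.3 to 213 TPM in HT and 53 to 169 TPM in TMD8, against 8.11 to 15.1 TPM in OCI-Ly10. The first 3 lines were above OCI-Ly10 by 8.90-fold to 10.7-fold, and no difference among them was called (adjusted p = 0.0822 to 0.894, edgeR). DNAJB1 was highest in HT at 124 to 243 TPM. It was at 96.1 to 159.7 TPM in K422 and 74.3 to 114 TPM in TMD8, not called apart (adjusted p = 0.679), and lowest in OCI-Ly10 at 44.9 to 54.7 TPM (TMD8 minus OCI-Ly10 0.95 ± 0.11, adjusted p = 6.63e-07). HSPA9 was higher in TMD8 than in each other line (log2 differences of 0.37 to 0.46), and no other pair was called. HSPH1 was highest in TMD8, then HT, while K422 was not called apart from HT (adjusted p = 0.053) or OCI-Ly10 (adjusted p = 0.763). For HSPA8 K422 exceeded HT (0.39 ± 0.10, adjusted p = 0.00231) and the other 5 pairs of lines were not called. HSPA4 was highest in TMD8 and lowest in K422, with -0.31 ± 0.07 (adjusted p = 0.00048) between them, and OCI-Ly10 was called apart from TMD8 only. HSF1 was lower in TMD8 than in each other line (by 0.23 to 0.34 on the log2 scale), and no difference among OCI-Ly10, HT and K422 was called.

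These orders come from TMM-scaled counts, and the deposited TPM values gave other orders for some members. Ribosomal proteins took a median of 12.1% of counts in K422 in DMSO and 18.8% in OCI-Ly10, and the part of this in the TPM values was not tested. In TPM the K422 libraries lay above the OCI-Ly10 libraries without overlap for HSPA8, HSPA4, HSPA9 and HSF1 (111 to 133 TPM against 88.5 to 98 TPM), whereas the fitted differences of K422 minus OCI-Ly10 were 0.20, -0.11, -0.02 and -0.03, none of them called. The highest minus the lowest line mean on the log2 scale was 0.47 in TPM and 0.89 in TMM-scaled counts for HSP90AB1, 0.73 and 0.41 for HSPA8, and 0.66 and 0.36 for HSF1, so the order of these members by their spread between lines turned with the scale. OCI-Ly10 and TMD8 were grown in Iscove's medium and HT and K422 in RPMI-1640 by the study's methods, while the labels name RPMI-1640 for all, so medium and subtype cannot be told apart.

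Other genes of the chaperone system, taken from lists of known members, moved less evenly. Among 9 tested genes of the HSP90 and HSP70 families outside the 10, 2 fell and 0 rose in ABC lines (median log2 fold change -0.23) and 6 fell and 1 rose in GCB lines (median -0.39). HSPA5, the BiP chaperone of the endoplasmic reticulum, fell by 0.44 in ABC lines and by 0.90 in GCB lines on the log2 scale, and HSPA14, a ribosome-bound HSP70, fell by 0.23 and 0.30. HSPA6 had -0.95 (adjusted p = 0.0652) in ABC lines and did not pass. HYOU1, an HSP110 relative of the endoplasmic reticulum, fell in GCB lines by 0.41. Of 36 other J-domain proteins, 8 fell and 3 rose in ABC lines (median 0.03), and 16 fell and 9 rose in GCB lines (median -0.07). DNAJB2 rose by 0.71 in ABC lines, where DNAJA2 (-0.46) and DNAJB11 (-0.31) fell, and by 0.55 in GCB lines. DNAJC18 (0.58), DNAJC30 (0.40) and DNAJC13 (0.31) also rose in GCB lines, each with a smaller p than DNAJB2. DNAJC2 (-0.54), DNAJB11 (-0.53) and DNAJC25 (-0.54) fell in GCB lines.

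Of 25 tested HSP90 co-chaperones, 6 fell and 1 rose in ABC lines (median -0.08), and 17 fell and 4 rose in GCB lines (median -0.20). FKBP4, an immunophilin that binds HSP90, had the smallest p in both subtypes, at -0.44 (adjusted p = 0.0028) in ABC lines and -0.71 (adjusted p = 2.33e-06) in GCB lines. AHSA1, which speeds the HSP90 ATPase, and STIP1, which links HSP70 to HSP90, fell in ABC lines by 0.27 and 0.27, and CHORDC1 and NUDC fell in GCB lines by 0.49 and 0.41. The largest change of the list was a rise, that of FKBP5 in GCB lines by 1.01 (adjusted p = 0.0015, edgeR). FKBP5 was not called in ABC lines (0.03). Of 10 nucleotide exchange factors of HSP70, 4 fell in ABC lines (median -0.11) and 5 in GCB lines (median -0.22), and 0 rose in either by edgeR or by limma on log2(TPM + 1). BAG3 (-0.61), GRPEL2 (-0.52) and GRPEL1 (-0.28), the last 2 of mitochondria, led in ABC lines. GRPEL1 (-0.56), HSPBP1 (-0.41) and BAG1 (-0.30) led in GCB lines.

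Of heat shock factors and partners of HSF1, 2 of 10 fell and 0 rose in ABC lines (median -0.08), and 2 of 11 fell and 3 rose in GCB lines (median 0.02). SSBP1, a mitochondrial DNA-binding protein that can bind HSF1, fell by 0.20 in ABC lines and 0.32 in GCB lines. MAPKAPK2, a stress kinase that phosphorylates HSF1, fell by 0.33 in ABC lines and rose by 0.55 in GCB lines. The test of its difference between subtypes is not reported here. HSBP1, which binds heat shock factors, had -0.18 (adjusted p = 0.0848) in ABC lines, and SIRT1, a deacetylase of HSF1, rose by 0.21 in GCB lines. Of 18 tested small heat shock proteins and other known HSF1 targets, 8 fell and 1 rose in ABC lines (median -0.17), and 9 fell and 2 rose in GCB lines (median -0.14). HSPD1, the mitochondrial chaperonin HSP60, fell by 0.39 in ABC lines and by 0.56 in GCB lines. RGS2 fell in ABC lines by 0.79, and FKBP4 and STIP1 belong to this list as well as to the co-chaperones, STIP1 falling by 0.58 in GCB lines. In the main test the lists had 13.8% of all genes falling in ABC lines and 23.5% in GCB lines as their background. The counts of ABC lines depended on the scaling. By limma on log2(TPM + 1), 6 of the 9 other family members fell in ABC lines and 0 rose, as did 17 of 25 co-chaperones with 0 rising. There 14 of 36 J-domain proteins fell and 1 rose, 8 of 10 exchange factors and 6 of 10 HSF1 partners fell, and 14 of 18 HSF1 targets fell, with 0 rising in the last 3 lists. The background on that scale was also higher, as 4279 of 11419 genes fell in ABC lines and 620 rose. With DESeq2's size factors in edgeR the number that fell was as in the main test for each list in ABC lines, and 0 co-chaperones and 0 HSF1 targets rose. In GCB lines the TPM scale moved the number that fell by at most 1 gene in any list. On the log2(TPM + 1) scale the median of J-domain proteins in ABC lines was -0.16 and that of HSF1 partners in GCB lines -0.06, against medians of -0.15 and -0.03 over all genes, so these 2 lists changed sign with the scaling.

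Over the 15 pairs the 9 members other than HSPA1A, which was left out here for its low counts, moved together to unequal degrees. The log2 ratios of HSP90AA1 and HSPA9 had the highest Pearson correlation among these 9 (r = 0.926), followed by HSP90AA1 and HSPH1 (r = 0.883) and HSP90AA1 and HSPA4 (r = 0.881). HSPA1B went with DNAJB1 (r = 0.825) and less with HSP90AA1 (r = 0.414) or HSP90AB1 (r = -0.0804). HSF1 had r of -0.462 to 0.232 with the other 8. Outside the 10, the genes whose ratios followed the mean of the 9 tested in both subtypes most closely, among 9557 genes, were MPHOSPH6 (r = 0.895), MARS (r = 0.892), SSB (r = 0.883), BAG2 (r = 0.883) and HNRNPK (r = 0.883). MPHOSPH6 works with the RNA exosome, MARS is the cytosolic methionyl-tRNA synthetase, SSB binds the ends of new RNA polymerase III transcripts, BAG2 is an HSP70 co-chaperone and HNRNPK binds RNA. MPHOSPH6 was lower under AZD8186 in 15 of 15 pairs, with a median log2 ratio of -0.38, and HNRNPK in 12 of 15 with a median of only -0.08. Pairs of 1 line share that line and are not independent, so these correlations are descriptions.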

How the data were processed

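RNA was sequenced from 30 libraries of 4 DLBCL lines. As the methods and processing notes state, the authors aligned reads with HISAT2 (build GRCh38.p12) and quantified genes with RSEM, which gives the deposited expected counts and the deposited TPM values. No source used here gives strand, read length or the versions of HISAT2 and RSEM. Expected counts were rounded to whole numbers and tested with edgeR 4.0.16 (TMM, quasi-likelihood, filterByExpr, R 4.3.3), with terms for line and time point within a subtype, and p-values were adjusted by Benjamini-Hochberg over all genes tested. TPM values show levels, and the alternatives used DESeq2 1.42.0 and limma 3.58.1. Depth was 15820230 to 23579029 counts, so counting error is small for all members but HSPA1A outside HT. The pipeline was tested on simulated data with independent libraries, a fixed dispersion and no effect of time point. That test thus does not cover the spread between libraries such as these. The members, gene lists and tests were chosen with earlier results of these data known. All members were named. Of each list, the 3 genes with the smallest p in a subtype were named, and the 5 genes most correlated with the members' mean ratio. FKBP5, and DNAJB2, DNAJC18, DNAJC30 and DNAJC13 in GCB lines, were named in addition because they rose. Heat shock elements and other sequences came from RefSeq (GRCh38.p14), and gene positions and transcripts from GENCODE 29. The test of any difference between time points was added after the data were seen.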

Additional observations from a re-analysis of the deposited data

Results flagged for a closer look

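A value far from the others was looked for in 75 groups, each holding either a member's log2 ratios in the 7 or 8 pairs of a subtype or its TPM in the 4 libraries of 1 line and treatment. In 3 of them 1 library stood apart, and chance alone marks about 1 in 20. HSPA9 was high at 181 TPM in HT after 6 h of AZD8186. HSF1 was low at 102 TPM in HT and at 98.7 TPM in K422 after 6 h of AZD8186. The response to AZD8186 differed between K422 and HT (K422 minus HT on the log2 scale, edgeR) by -0.338 for DNAJB1, by -0.464 for HSPA1B and by -0.563 for HSPA1A and HSPA1B summed.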

How the results depend on the processing

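Each result was recomputed under 1 to 21 alternatives, of 29 in all, giving 1136 values, of which 0 changed sign as a call. With treatment as the only term, 1 member was lower in ABC lines and 4 in GCB lines, and 75 genes fell and 97 rose in ABC lines, 770 and 622 in GCB lines. Leaving out 1 pair at a time gave 7 to 8 members lower in ABC lines, 8 in GCB lines, 0 to 7 members called for K422 minus HT and 0 to 1 for TMD8 minus OCI-Ly10. The ABC counts of all genes fell to 970 lower and 1124 higher without OCI-Ly10 at 18 h, to 1014 and 1140 without OCI-Ly10 at 24 h, and to 759 and 911 at an adjusted p under 0.01, where HSP90AB1 was not called in ABC lines. With a replicate block (line and time point as the pair) 8 members were lower in each subtype, 1733 genes fell and 1861 rose in ABC lines, and 2484 fell and 2747 rose in GCB lines, so that no member's call changed. The time points do not pair libraries by any label, and 12 of 15 AZD8186 libraries correlated best with the DMSO library of their own time point (r from -0.000252 to 0.441). The cause of these changes was not tested. With 1 library per line, treatment and time point, and 3 pairs in TMD8, small differences were not detectable there.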
